A study of Mus musculus with 12 samples.

Results

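The 10 genes described here are effector genes of killer lymphocytes: Gzma, Gzmb, Gzmk, Prf1, Nkg7, Klrd1, Xcl1, Ctsw, Ifng and Il2rb. They were chosen by name, as known products of cytotoxic T cells and natural killer (NK) cells, with earlier results of these data known. All 10 were found among the 32245 gene symbols of the 4 gene expression matrices. The mice were male C57BL/6J mice that the study and the labels give as ApoE-/-, which lack apolipoprotein E and form arterial plaques on a fatty diet. They were 8 weeks old at the start and were followed for 24 weeks, with 18 mice per group. The group labelled Healthy had a normal diet and saline, and the atherosclerosis (AS) group a diet with 1% cholesterol and 10% fat and saline. The MTZ-treated group had the fatty diet with methazolamide (MTZ), an inhibitor of carbonic anhydrases, at 25 mg/kg for the last 12 weeks, and the MTZ-preventive group had the fatty diet with the same dose for all 24 weeks. The labels spell the drug methoxazolamide. For sequencing, 6 aortas were pooled per group into 1 droplet library that read the 5' ends of transcripts, with 1 T cell receptor (TCR) library beside it.

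Killer lymphocytes carry granules in which perforin, the product of Prf1, is stored with serine proteases called granzymes. When a target cell is recognised, the granules are released into the contact, perforin opens the membrane of the target and the granzymes enter and cut its proteins. The same cells secrete interferon gamma and chemokines, and depend on interleukin 15 and interleukin 2 signals that they receive through a shared receptor chain. In the arterial wall and its surrounding fat, NK cells and CD8+ T cells are among the lymphocytes found around plaques.

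The library labelled Healthy kept 11121 cells after filtering, with 30621712 unique molecular identifiers (UMIs, counted molecules). The AS library kept 2160 cells with 3803696 UMIs, the MTZ-treated library 6796 with 15685421 and the MTZ-preventive library 14186 with 35359017. A level is given as UMIs per 1000000 UMIs of the same cells (CPM), and the 3 UMIs taken as the floor correspond to 0.789 CPM in AS and to at most 0.191 CPM in the other libraries. Apoe was at 676 CPM in the library labelled Healthy and between 8.97 and 12.8 CPM in the others, which goes against an ApoE-/- genotype for that library, and every direction drawn from it below carries this doubt. Between 22 and 242 cell barcodes were shared by a pair of libraries, and 4 of these were lymphocyte barcodes both in the library labelled Healthy and in MTZ-preventive. With 1 library per group there was no spread between mice to set a difference against, so no test was made across conditions. All limits in brackets are 95% limits that cover counting error only. Levels were not compared between genes.

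Cells were sorted into classes by marker genes that include none of the 10 genes. A cell was called T-gated with a UMI of at least 2 of 6 T cell receptor and CD3 genes, NK-gated with at least 2 of 8 NK receptor genes, and T-NK-gated with both. In the order library labelled Healthy, AS, MTZ-treated and MTZ-preventive, the libraries held 1929, 10, 156 and 868 T-gated cells and 65, 0, 33 and 40 NK-gated cells. The T-NK-gated cells, 28, 0, 3 and 5 in that order, may hold doublets of a T and an NK cell, which was not tested. Genes outside the gates went with the names in part. Tyrobp and Fcer1g, signalling adaptors of NK receptors, had a UMI in 92.3% and 89.2% of NK-gated cells of the library labelled Healthy and in 0.518% and 1.04% of its T-gated cells, each cell thinned to 1000 UMIs. The T cell genes Bcl11b, Cd5 and Themis had no UMI in any NK-gated cell of that library or of MTZ-preventive, while Cd28 had one in 2 of 65 and 3 of 40 NK-gated cells. Lck was found in 26.2% and 27.5% of NK-gated cells, near its T-gated shares of 28.1% and 23.8%, and Cd2 in 13.8% and 22.5%. In the library labelled Healthy, Eomes was in 18.5% of NK-gated and 1.04% of T-gated cells, and Klrk1 in 23.1% and 0.570%. Txk, at 4.62% and 3.32%, and Gata3, at 4.62% and 3.63%, did not separate the 2 gates there. In MTZ-preventive Txk was at 17.5% and 2.995%, and Gata3 at 0% and 3.23%. The B cell gene Ighm was in 8.24% of T-gated and 43.6% of B-gated cells of the library labelled Healthy. A TCR contig was found for 52.5% of T-gated cells in the library labelled Healthy and 45.4% in MTZ-preventive, against 1 of 65 and 0 of 40 NK-gated cells. In MTZ-treated a contig was found for 28 of 156 T-gated and 0 of 33 NK-gated cells, and in AS for 0 of 10 T-gated cells. Their TCR libraries listed only 42 and 3 barcodes, and whether the gate or the library gave the low shares was not tested. Lck, Cd2 and Cd5 were in fewer T-gated cells of MTZ-treated, 10.9%, 8.33% and 7.05%, than of either library above. Bcl11b, Cd28 and Themis lay between those libraries. Only the limits of Lck did not overlap.

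The sequences before the starts of the granzyme genes Gzma, Gzmb and Gzmk are shown. These were the members at least 2-fold higher in T-gated cells of MTZ-preventive than in those of the library labelled Healthy. That holds with T-NK-gated cells left out, and with them added only for Gzmk. Of these 3 only Gzma and Gzmb were found in NK-gated cells. Each run is the 250 bases upstream of the RefSeq start in GRCm38.p6, 5' to 3' on the minus strand. The windows are chr13:113100982-113101231 for Gzma, chr14:56262335-56262584 for Gzmb and chr13:113180966-113181215 for Gzmk. Capitals mark matches on either strand to TGTGGT, a Runx motif, to TGAGTCA, an AP-1 motif, or to AGGTGTG, a T-box motif, and no marked matches overlap.
Gzma: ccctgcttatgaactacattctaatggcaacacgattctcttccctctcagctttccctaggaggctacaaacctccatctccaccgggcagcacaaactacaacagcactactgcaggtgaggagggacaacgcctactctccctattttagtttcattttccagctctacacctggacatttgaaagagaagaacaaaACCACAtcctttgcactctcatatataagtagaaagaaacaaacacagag
Gzmb: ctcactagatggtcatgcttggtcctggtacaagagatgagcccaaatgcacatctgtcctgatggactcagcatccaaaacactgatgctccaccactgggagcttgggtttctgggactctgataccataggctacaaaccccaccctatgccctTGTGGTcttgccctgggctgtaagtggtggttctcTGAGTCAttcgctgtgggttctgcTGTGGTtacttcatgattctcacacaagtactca
Gzmk: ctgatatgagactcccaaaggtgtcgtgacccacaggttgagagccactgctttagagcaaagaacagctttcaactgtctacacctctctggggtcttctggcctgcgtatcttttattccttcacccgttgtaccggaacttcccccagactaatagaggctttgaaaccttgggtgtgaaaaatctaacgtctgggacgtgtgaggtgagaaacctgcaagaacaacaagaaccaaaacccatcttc
The Gzmb window held 2 Runx matches and 1 AP-1 match, the Gzma window 1 Runx match on the opposite strand, and the Gzmk window none of the 3. Of the 7 members with a window in the table, 5 held the Runx letters, namely Gzma, Gzmb, Prf1, Nkg7 and Xcl1, 1 the AP-1 letters (Gzmb) and 1 the T-box letters (Nkg7). Among 32851 windows of the same length, 14.05% held the Runx letters, 4.46% the AP-1 letters and 5.10% the T-box letters. A match is a description of the letters only.

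Over all cells, the effector genes were scarcest in the AS library. Its 10 genes had 94 UMIs in all, against 10054 in the library labelled Healthy, 3312 in MTZ-treated and 4789 in MTZ-preventive. In AS, 9 of 10 members were at least 2-fold lower than in the library labelled Healthy and none was 2-fold higher, where 15.6% of all genes with at least 20 UMIs were lower and 7.03% higher. The median log2 ratio, with 1 CPM added, was -3.12 over the members and -0.18 over all genes, and -2.73 over the members with Gzmb set to its floor. In a level over a whole library, fewer cells of a type and less RNA per cell cannot be told apart. T-gated, NK-gated and T-NK-gated cells were 0.463% of the kept AS cells, against 18.2% in the library labelled Healthy, 2.83% in MTZ-treated and 6.44% in MTZ-preventive, and the part of these shares in the whole-library levels was not tested.

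**Figure D1:**
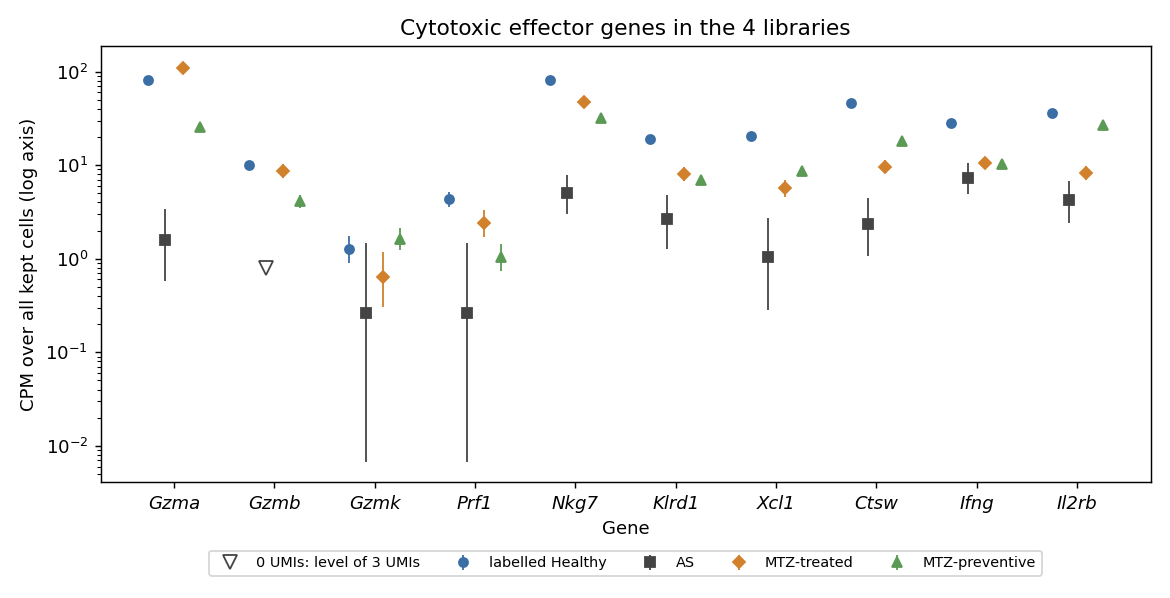
CPM of each gene over all kept cells (log axis) in the 4 libraries. Bars are 95% Poisson limits that cover counting error only, and the open triangle marks Gzmb in AS, which had 0 UMIs, at the level of 3 UMIs. The AS squares lie lowest for all genes, from 0.263 to 7.36 CPM for those with a UMI.

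Gzma ranged most widely of the members with a UMI in every library. Gzma, a tryptase of the granules that lies at chr13:113093824-113100981, was at 81.1, 1.58, 110.04 and 25.7 CPM in the library labelled Healthy, AS, MTZ-treated and MTZ-preventive. It was the only member with a higher level in MTZ-treated than in the library labelled Healthy, and its MTZ-treated level was 69.8-fold (32.0 to 190) that of AS. Gzmb, the granzyme that activates caspases (chr14:56258836-56262334), was at 9.96, 0, 8.73 and 4.13 CPM in the same order. With 0 UMIs in AS, Gzmb was at least 12.6-fold higher in the library labelled Healthy, at least 11.1-fold higher in MTZ-treated and at least 5.24-fold higher in MTZ-preventive, against the floor of 3 UMIs per library. Gzmk, a granzyme of T cells (chr13:113171630-113180965), was rare everywhere, with 39, 1, 10 and 58 UMIs in the library labelled Healthy, AS, MTZ-treated and MTZ-preventive. Its MTZ-preventive level was 6.24-fold that of AS, but with 1 UMI in AS the limits ran from 1.08 to 251.

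The other granule genes were also lowest in AS. Prf1, which encodes the pore-forming protein perforin (chr10:61297751-61304684), was at 4.31, 0.263, 2.42 and 1.05 CPM in the order used above, the AS value being 1 UMI. Nkg7, a granule membrane protein (chr7:43437138-43438246), was at 81.5, 5.00, 47.1 and 31.7 CPM. Ctsw, cathepsin W, a cysteine protease of killer lymphocytes (chr19:5465043-5468628), was at 45.6, 2.37, 9.63 and 18.3 CPM. For Nkg7 the MTZ-treated level was above the MTZ-preventive level, and for Ctsw it was below, and in both pairs the limits did not overlap.

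Receptor genes were also lowest in AS. Klrd1 encodes CD94, the partner chain of NKG2 receptors that read class I molecules (chr6:129588092-129598775), and was at 19.2, 2.63, 8.10 and 6.96 CPM. Its limits in MTZ-treated (6.75 to 9.63) and MTZ-preventive (6.11 to 7.88) overlapped. Il2rb encodes CD122, the receptor chain shared by interleukin 2 and interleukin 15 (chr15:78479256-78511621), and was at 36.4, 4.21, 8.22 and 26.9 CPM, so that MTZ-preventive lay well above MTZ-treated.

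The secreted signals differed from each other in AS. Xcl1, a chemokine that draws dendritic cells bearing the receptor Xcr1 (chr1:164931644-164935522), was at 20.7, 1.05, 5.67 and 8.71 CPM. Ifng, interferon gamma (chr10:118441046-118445894), was at 28.4, 7.36, 10.6 and 10.3 CPM, and was the member with the most UMIs in AS, 28 in 16 cells. Its ratio to AS was 1.44 (0.959 to 2.23) in MTZ-treated and 1.39 (0.949 to 2.13) in MTZ-preventive, and both limits included 1.

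Against AS, 7 of the 9 members with at least 20 UMIs were at least 2-fold higher in MTZ-treated and none was 2-fold lower, where 7.85% of all genes were higher and 4.85% lower. Ifng and Il2rb stayed under 2-fold, and Gzmk had too few UMIs to be counted. In MTZ-preventive, 8 of 10 were at least 2-fold higher than in AS and none was lower, beside 6.44% and 2.84% of all genes, with Ifng under 2-fold and Prf1 under it only with 1 CPM added (ratio 3.98, limits 0.671 to 161, from 1 UMI in AS). With 0.1 CPM added, 9 of 10 were past 2-fold. The median log2 ratio of the members was 1.66 in MTZ-treated and 2.30 in MTZ-preventive, and 0.09 over all genes in both, with a members' median of 1.88 in MTZ-preventive once Gzmb was set to its floor. These comparisons share the AS library, and also share it with the comparison to the library labelled Healthy, so they are not independent of each other. They rest on the 94 UMIs of the 10 genes in AS.

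The related genes of killing did not all take this direction. Of 36 further genes of granule release, effectors, transcription factors, receptors and receivers, 31 were counted in MTZ-treated over AS. Of these, 5 were at least 2-fold higher and 5 lower, beside 7.85% and 4.85% of all genes. In MTZ-preventive 11 were higher and 3 lower among 35 counted, beside 6.44% and 2.84% of all genes. Ccl5, a chemokine of activated T and NK cells, was at 79.7, 406 and 316 CPM in AS, MTZ-treated and MTZ-preventive. Ccl3, a chemokine also made by macrophages, went the other way, at 104.9, 19.0 and 18.7 CPM. Fcgr3, the Fc receptor CD16 of NK and myeloid cells, was at 51.5, 11.3 and 5.996 CPM.

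Most UMIs of the effector genes came from the lymphocyte gates, except in AS. T-gated, NK-gated and T-NK-gated cells held 81.1% of the members' UMIs in the library labelled Healthy, 58.5% in MTZ-treated and 65.3% in MTZ-preventive, but 31.9% in AS. Outside AS, most of the remainder lay in cells that met no gate, with 9.86% in the library labelled Healthy, 26.9% in MTZ-treated and 19.2% in MTZ-preventive, beside 14.9% in AS. Of the UMIs in ungated cells, 60.8% in the library labelled Healthy, 59.8% in MTZ-treated and 50.6% in MTZ-preventive were in cells with 1 T gate gene or 1 NK gate gene, short of either gate, against 14.3% in AS. In AS, other gates, such as myeloid and endothelial, held 48.9% of the 94 UMIs.

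**Figure D2:**
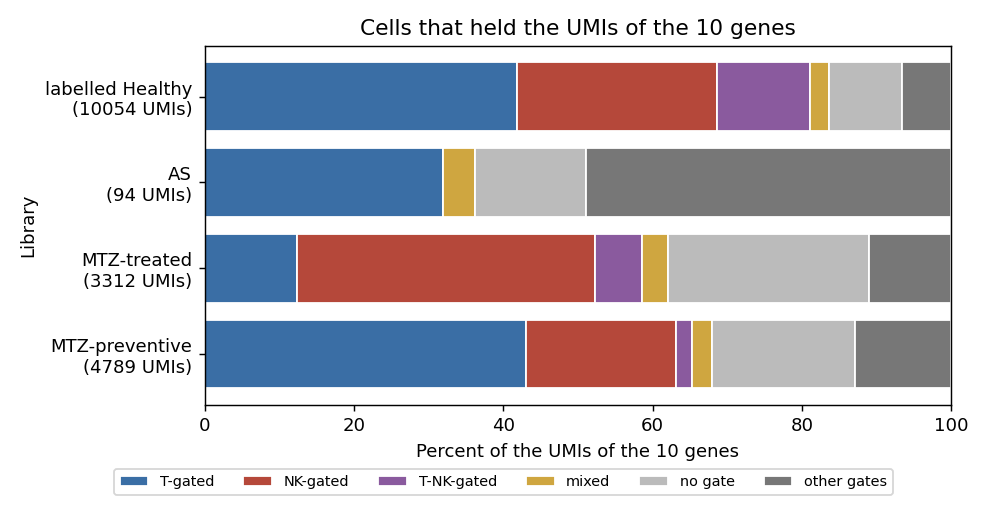
Percent of the summed UMIs of the 10 genes (horizontal axis) that lay in each class of cells, 1 bar per library with its number of UMIs. The 3 lymphocyte gates make up 81.1% of the bar of the library labelled Healthy and 31.9% of the AS bar, in which no cell met the NK gate.

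Members split by lymphocyte. Of the Gzma UMIs, 52.5% were in the 65 NK-gated cells and 8.22% in the 1929 T-gated cells of the library labelled Healthy, and 55.5% and 22.3% in those of MTZ-preventive. Prf1 was divided alike, with 51.5% in NK-gated and 20.5% in T-gated cells of the library labelled Healthy. For Nkg7, Klrd1, Ctsw and Il2rb, between 55.2% and 67.6% of the UMIs were in T-gated cells of that library. In MTZ-treated the T-gated and NK-gated shares were 20.4% and 37.2% for Nkg7 and 19.7% and 21.3% for Klrd1. They were 33.8% and 27.8% for Ctsw and 28.7% and 24.8% for Il2rb. Gzmk had 69.2% of its 39 UMIs in T-gated cells of the library labelled Healthy, near the share of Ctsw. It had 0 UMIs in the NK-gated cells of all 3 libraries that hold them.

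As a level in CPM, nearly every effector gene was higher in NK-gated cells. In the library labelled Healthy 9 of 10 members were at least 2-fold higher in NK-gated than in T-gated cells, where 17.1% of all genes were, and in MTZ-preventive again 9 of 10, where 19.2% were. Gzmk counted as at least 2-fold lower in both, beside 18.7% and 20.1% of all genes. It had 0 UMIs in NK-gated cells, but the floor of those cells lay above its T-gated level, so that no difference in Gzmk was detectable at this depth. The median log2 ratio was 3.60 over the members and 0.16 over all genes in the library labelled Healthy, and 3.04 and 0.20 in MTZ-preventive.

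The gap was widest for Gzma, and in the library labelled Healthy for Gzmb and Prf1 next. Gzma was at 6741 CPM in NK-gated and 34.8 in T-gated cells of the library labelled Healthy, a 194-fold difference (167 to 226), and at 6563 and 94.7 in MTZ-preventive, a 69.3-fold difference (58.8 to 81.9). Gzmb was at 667 and 6.99 CPM, 95.4-fold, in the library labelled Healthy and at 377 and 29.9 CPM, 12.6-fold, in MTZ-preventive. Prf1 was at 352 and 4.603 CPM, 76.4-fold, and at 169 and 4.20 CPM, 40.2-fold. The limits of the Gzma and Gzmb differences did not overlap between these libraries, and those of Prf1 did. These limits treat each UMI as independent. The T-gated Gzma UMIs lay in only 30 and 22 cells, with 55 and 43 of them in 1 cell. The missing overlap therefore does not show that the libraries differ. T-NK-gated cells were left out of both sides.

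For the other members the gap was smaller than for Gzma and Prf1 in both libraries. In the library labelled Healthy, Xcl1 was 19.7-fold higher in NK-gated cells, Ifng 13.996-fold, Nkg7 10.7-fold, Il2rb 9.69-fold, Klrd1 6.60-fold and Ctsw 3.69-fold. Ctsw and Klrd1, the lowest, had a UMI in 13.01% and 4.77% of T-gated cells. In MTZ-preventive the same differences ran from 4.15-fold for Ctsw to 16.8-fold for Xcl1, the last above the 12.6-fold of Gzmb. In MTZ-treated, with 33 NK-gated and 156 T-gated cells, the 9 members detected in NK-gated cells were again higher there, from Ifng, at 530 against 235 CPM, to Gzma, at 14055 against 177 CPM.

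**Figure D3:**
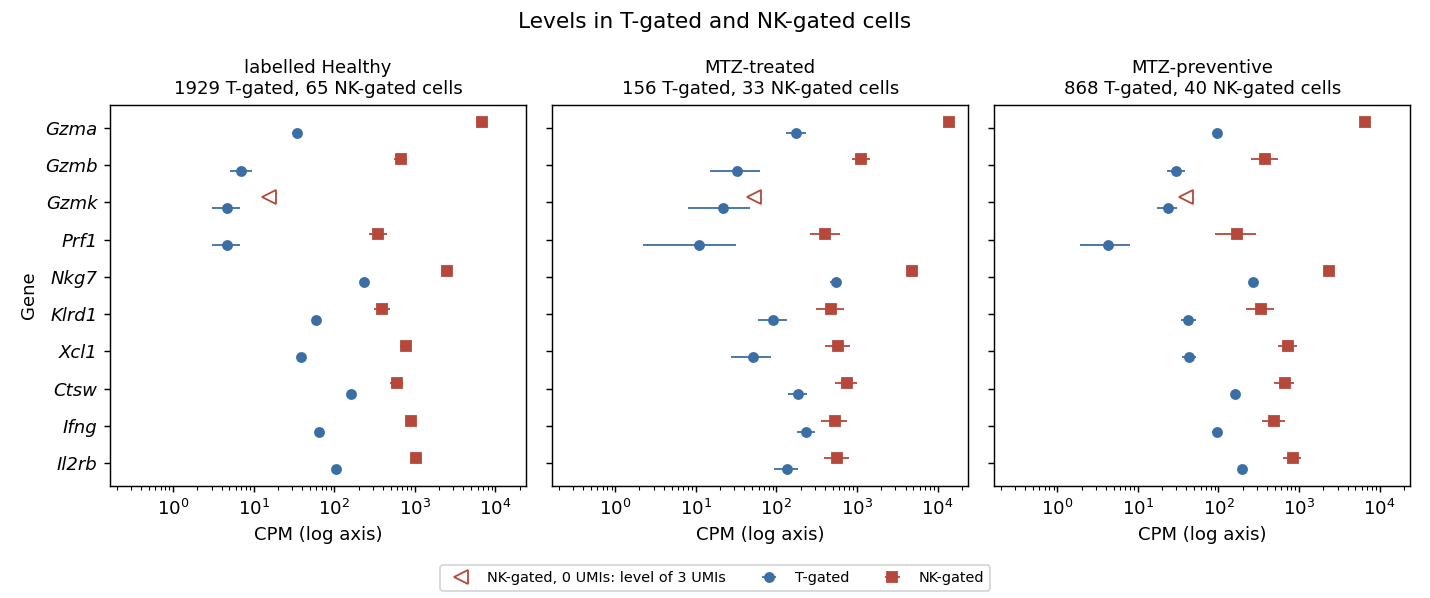
CPM (log axis) of each gene in T-gated cells (circles) and NK-gated cells (squares) of the 3 libraries that hold both, with 95% Poisson limits that cover counting error only. Open triangles mark Gzmk, with 0 UMIs in NK-gated cells, at the level of 3 UMIs, and the squares of the other 9 genes lie to the right of the circles in each library.

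The wider programme of these cells was higher in NK-gated cells as well. Of the 36 related genes, 20 were at least 2-fold higher and 5 lower than in T-gated cells of the library labelled Healthy among 32 counted. Of all genes, 17.1% were higher and 18.7% lower there. In MTZ-preventive 15 were higher and 1 lower among 26 counted, beside 19.2% and 20.1% of all genes. In the library labelled Healthy, Ccl3 was at 1985 and 6.31 CPM, Ccl4 at 4374 and 79.4 CPM and Ccl5 at 23404 and 818 CPM in NK-gated and T-gated cells. The transcription factors Tbx21, Eomes and Zeb2, which drive effector differentiation, were 23.0-fold, 21.0-fold and 37.3-fold higher. Serpinb9, an inhibitor of granzyme B that shields the killer cell, was at 72.4 against 3.75 CPM. Gzmm, the granzyme M gene, had 0 UMIs in NK-gated and 44 in T-gated cells, and Il2ra, the inducible interleukin 2 receptor chain, 0 and 34, both under the floor of the NK-gated cells.

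Shares of cells with a UMI were read with every cell thinned to 1000 UMIs, because T-gated and NK-gated cells differed in depth, with medians of 2888 and 2711 UMIs in the library labelled Healthy, 1651 and 1505 in MTZ-treated and 2301 and 1725 in MTZ-preventive. Nkg7 had a UMI in 81.5%, 100% and 80.0% of NK-gated cells of these libraries and in 14.98%, 25% and 15.7% of T-gated cells (unthinned, 96.9%, 100% and 90.0%, and 30.02%, 34.6% and 26.4%). Gzma had one in 75.4%, 93.9% and 75.0% of NK-gated cells (unthinned, 76.9%, 97.0% and 77.5%). The order of NK-gated over T-gated cells was the same for all members with a UMI in NK-gated cells.

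Several members were often found in 1 NK-gated cell. At least 3 of the 10 genes were detected, on the thinned counts, in 84.6% (73.5 to 92.4) of NK-gated cells of the library labelled Healthy, 93.9% (79.8 to 99.3) in MTZ-treated and 72.5% (56.1 to 85.4) in MTZ-preventive. Among T-gated cells the shares were 2.95% (2.25 to 3.81), 10.3% (5.98 to 16.1) and 5.88% (4.41 to 7.65). Among 3344 B-gated cells of the library labelled Healthy none held 3 members, which allows a share of up to 0.110%, and 2 of 1294 did in MTZ-preventive.

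Shares in cells outside the T and NK gates were read as a background for these shares. Whether they came from free RNA in the droplets was not tested. They differed between classes, with Gzma in 11.6% (5.14 to 21.6) of 69 myeloid-gated cells of the library labelled Healthy. In fibroblast-gated cells, median 1530 UMIs, Gzma had a UMI in 1.57% (1.06 to 2.25) of cells of the library labelled Healthy, and in T-gated cells, median 2888 UMIs, in 1.14% (0.716 to 1.72). Gzmb was at 0.596% and 0.570%. The T-gated shares of Gzma and Gzmb in that library were thus not above the fibroblast-gated shares, although both were above the B-gated shares of 0.239% and 0.0598%. In MTZ-preventive the T-gated share of Gzma, 2.07% (1.23 to 3.26), lay above the fibroblast-gated 0.436% (0.249 to 0.707), and that of Gzmb, 1.498% (0.7998 to 2.55), above 0.0817% (0.0169 to 0.239). In 1239 adipocyte-gated cells of MTZ-preventive Gzma was at 0.888% (0.444 to 1.58), with limits that overlapped the T-gated ones. Gzmb was at 0.0807% (0.00204 to 0.449) in them. In MTZ-treated, Gzma was at 3.21% (1.05 to 7.32) in T-gated and 2.01% (1.46 to 2.70) in fibroblast-gated cells, with overlapping limits, and Gzmb at 3.85% (1.42 to 8.18) and 0.421% (0.193 to 0.797). Gzmk, Prf1, Nkg7, Klrd1, Xcl1, Ctsw, Ifng and Il2rb were above the fibroblast-gated share in T-gated cells of the library labelled Healthy and of MTZ-preventive. The limits of Gzmk and Prf1 overlapped in the library labelled Healthy.

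**Figure D4:**
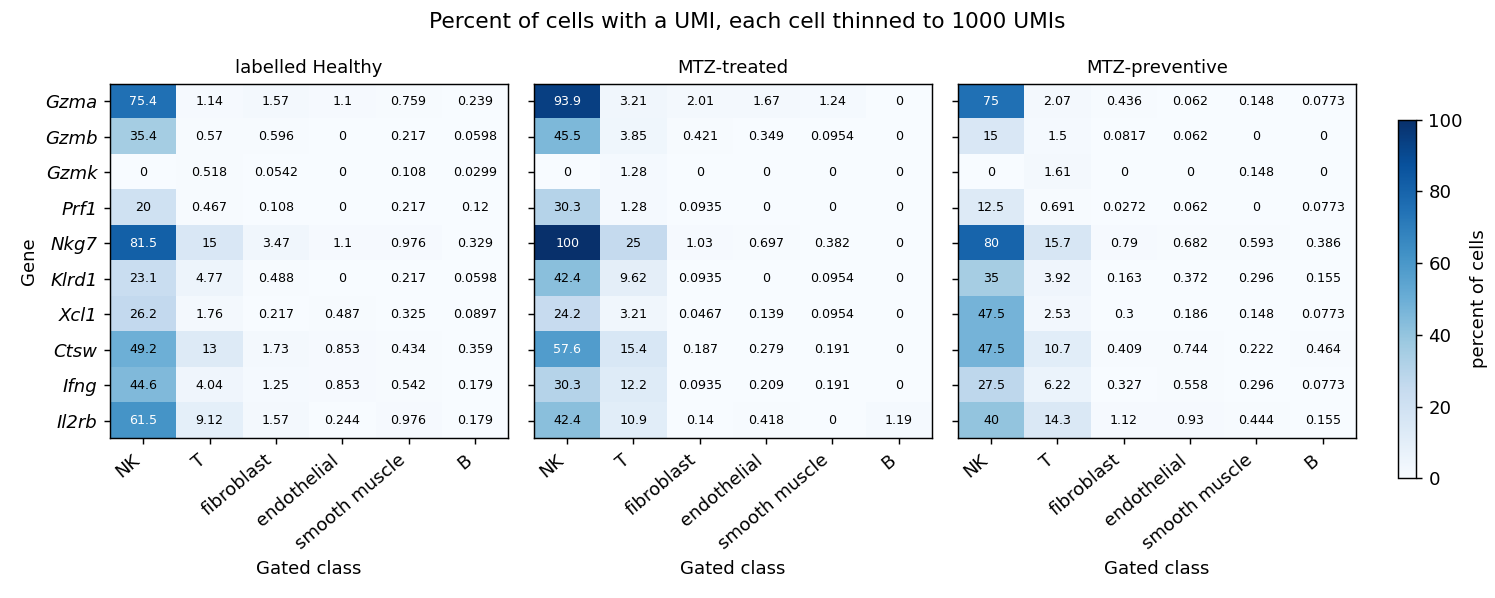
Percent of cells with at least 1 UMI of each gene (rows) in 6 gated classes (columns) of 3 libraries, each cell thinned to 1000 UMIs, printed in each tile and given by its shade. NK-gated cells reach 75.4%, 93.9% and 75.0% for Gzma, while no B-gated share is above 1.19%.

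Within T-gated cells, with T-NK-gated cells left out, the granzymes were higher in MTZ-preventive than in the library labelled Healthy. T-NK-gated cells also meet the T gate, and 9 of 28 and, in MTZ-preventive, 3 of 5 had a TCR contig. They held 22.4% of the Gzma UMIs of the library labelled Healthy, against 8.22% in T-gated cells. In MTZ-preventive they held 2.97%, against 22.3%. For Gzmb these shares were 22.0% against 13.4%, and 5.48% against 43.8%. With them added to the T-gated cells, Gzma was not higher in MTZ-preventive and Gzmb was under 2-fold, while Gzmk stayed at least 2-fold higher. Without them, 3 of the 10 members were at least 2-fold higher, Gzma, Gzmb and Gzmk, and none was lower. Of all genes, 4.48% were higher and 2.96% lower. The median log2 ratio was 0.39 over the members and 0.02 over all genes. Gzma was at 94.7 and 34.8 CPM, a ratio of 2.72 (2.23 to 3.32), Gzmb at 29.9 and 6.99 CPM, 4.27 (2.84 to 6.49), and Gzmk at 23.3 and 4.603 CPM, 5.07 (3.11 to 8.42). Il2rb was at 195 and 106 CPM, 1.84 (1.62 to 2.08), and Ifng at 96.6 and 64.3 CPM, 1.503 (1.26 to 1.79). Prf1, at 4.20 and 4.603 CPM, Ctsw, at 160 and 161 CPM, and Xcl1, at 43.4 and 38.9 CPM, had ratios whose limits included 1. Klrd1 was lower in MTZ-preventive, at 42.5 and 59.5 CPM, 0.714 (0.560 to 0.901).

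These granzyme levels came from few cells. The 10 T-gated cells with the most Gzma held 88.7% of its T-gated UMIs in the library labelled Healthy and 86.2% in MTZ-preventive, and for Gzmk the 10 highest held 74.1% and 70.0%. Nkg7, Ctsw and Il2rb were spread over many cells, with 10.4%, 6.98% and 10.4% in the 10 highest of the library labelled Healthy.

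Some of the related genes were also higher in these T-gated cells. Among 30 counted, 11 were at least 2-fold higher in MTZ-preventive than in the library labelled Healthy, 1 was lower and 18 were neither, beside 4.48% and 2.96% of all genes. Ccl5 was at 2060 and 818 CPM, Ccl4 at 207 and 79.4 CPM, and Fasl, the ligand that triggers Fas-mediated death, at 19.6 and 7.33 CPM. Tbx21 was at 28.9 and 11.3 CPM. The gene that was lower was Tnfsf10, which encodes the death ligand TRAIL, with 5 and 35 UMIs.

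NK-gated cells did not share this difference. Of 9 members counted, none was 2-fold higher in MTZ-preventive than in the library labelled Healthy and 1, Prf1, was lower, beside 3.57% and 5.9% of all genes. Gzma was at 6563 and 6741 CPM, a ratio of 0.974 (0.877 to 1.08). Gzmb was at 377 and 667 CPM, 0.565 (0.364 to 0.851), Prf1 at 169 and 352 CPM, 0.481 (0.244 to 0.878), and Ifng at 494 and 900 CPM, 0.549 (0.376 to 0.784). For Gzma, Gzmb, Ifng and Il2rb the limits of the ratio in NK-gated and T-gated cells did not overlap. These limits cover counting error only, and few cells held the T-gated granzyme UMIs.

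In MTZ-treated the NK-gated cells held higher Gzma and Gzmb levels than any other class or library. Gzma was at 14055 CPM in NK-gated cells of MTZ-treated, 2.08-fold (1.91 to 2.28) the level in the library labelled Healthy and 2.14-fold (1.91 to 2.40) that in MTZ-preventive. Gzmb was at 1132 CPM there, 1.70-fold (1.24 to 2.31) and 3.002-fold (1.91 to 4.83). Nkg7 was 1.94-fold and 2.07-fold. Il2rb went the other way, at 566 CPM against 1029 in the library labelled Healthy, a ratio of 0.550 (0.366 to 0.802). These rest on 33 NK-gated cells.

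T-gated cells of MTZ-treated were above those of the library labelled Healthy in the same granzymes, with Gzma at 177 CPM, 5.10-fold (3.66 to 6.9996), Gzmb 4.66-fold (1.99 to 9.74) and Gzmk 4.72-fold (1.59 to 11.7). T-NK-gated cells were left out here too, and held 7.71% of the Gzma UMIs of MTZ-treated, against 2.84% in T-gated cells. Only 28 of the 156 T-gated cells of MTZ-treated had a TCR contig. Ifng was at 235 CPM, 3.66-fold (2.77 to 4.78), and Nkg7 at 547 CPM, 2.33-fold (1.95 to 2.76). The 49 Gzma UMIs and 9 Gzmb UMIs behind these values lay in 6 cells each, and 32 of the Gzma UMIs in 1 cell. Without the highest cell in each library, an alternative chosen after seeing the data, Gzma was at 61.8 and 25.4 CPM, 2.43-fold (1.38 to 4.03). Gzmk was then 2.73-fold (0.526 to 8.99), with 3 UMIs left in MTZ-treated, and Gzmb 4.27-fold (1.601 to 9.76). The 10 T-gated cells of AS held 12 Ifng, 7 Il2rb, 6 Nkg7 and 3 Ctsw UMIs, 1 each of Gzmk and Xcl1, and none of Gzma, Gzmb, Prf1 or Klrd1. None of these 10 cells had a TCR contig. With 17587 UMIs in these cells, 3 UMIs correspond to 171 CPM, which was above the T-gated level of most members in the other libraries.

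Most granzyme UMIs of T-gated cells in the library labelled Healthy and in MTZ-preventive lay in CD8-type cells, those with a UMI of Cd8a or Cd8b1 and none of Cd4. T-NK-gated cells were not split by type and are left out here. There were 775 in the library labelled Healthy, 40.2% of T-gated cells, 33 in MTZ-treated and 263 in MTZ-preventive, 30.3%. Of the T-gated Gzma UMIs, 128 of 204 were in CD8-type cells of the library labelled Healthy and 194 of 203 in those of MTZ-preventive, against 10 of 49 in MTZ-treated. In CD8-type cells Gzma was at 46.9 CPM in the library labelled Healthy and 258 in MTZ-preventive, a ratio of 5.51 (4.38 to 6.94). Gzmb was at 8.79 and 71.9 CPM, 8.18 (4.97 to 13.8), and Gzmk at 7.33 and 62.6 CPM, 8.54 (4.96 to 15.2). With the UMIs of the 5 highest cells for each gene taken out in each library, MTZ-preventive stayed higher. Gzma was then at 5.50 and 73.2 CPM, Gzmb at 1.83 and 33.3 CPM and Gzmk at 2.57 and 29.3 CPM, over unchanged totals. The cut was uneven for Gzmb, found in 10 and 17 cells, and Gzmk, in 11 and 21. Gzma was found in 19 and 16 cells. The thinned share of CD8-type cells with a Gzma UMI was 1.68% and 5.70%, and with a Gzmk UMI 1.16% and 4.94%. T-gated cells without a UMI of Cd4, Cd8a, Cd8b1 or Trdc were more numerous, 901 (46.7%) and 518 (59.7%), and did not share this rise. Gzma was lower in those of MTZ-preventive, at 29.2 and 4.30 CPM, from 68 UMIs, 35 of them in 1 cell, and 5 UMIs. Gzmb was at 6.43 and 7.73 CPM in them, and Gzmk had 2 UMIs in each library.

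**Figure D5:**
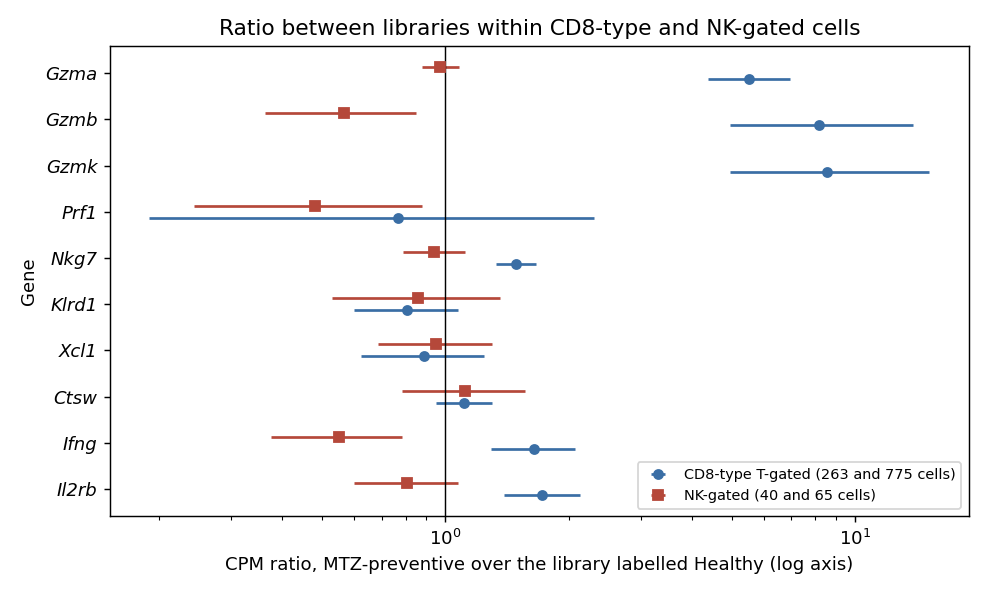
Ratio of the CPM in MTZ-preventive to that in the library labelled Healthy (log axis) for each gene in CD8-type T-gated cells (circles) and NK-gated cells (squares). Bars are 95% limits that cover counting error only, and the line marks a ratio of 1. The circles of Gzma, Gzmb and Gzmk lie at 5.51, 8.18 and 8.54, while no NK-gated ratio is above 1.11, and Gzmk has none because it had 0 UMIs in NK-gated cells.

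The other members changed less in CD8-type cells. Il2rb was at 101 and 174 CPM in the library labelled Healthy and MTZ-preventive, 1.72-fold (1.39 to 2.13), Ifng 1.65-fold (1.30 to 2.08) and Nkg7 1.49-fold (1.33 to 1.67). Prf1, Klrd1, Xcl1 and Ctsw had ratios between 0.765 and 1.11 with limits that included 1.

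The granzymes were found together in single CD8-type cells. In MTZ-preventive 21 CD8-type cells had a Gzmk UMI, and of these 12 also had Gzma and 10 Gzmb, against 4 and 7 of the other 242. In the library labelled Healthy 11 had Gzmk, of which 4 had Gzma and 5 Gzmb, against 15 and 5 of the other 764. All 21 and all 11 of the Gzmk cells had Ccl5 and Nkg7. Ccl5 was found in 32.2% and 18.1% of the rest, and Nkg7 in 50.4% and 57.9%. Ifng was found in 16 of the 21 and 5 of the 11, against 14.9% and 9.03% of the rest. These cells were shallower than the rest, with medians of 2386 against 2761 UMIs in MTZ-preventive and 3220 against 3410 in the library labelled Healthy. The NK adaptor Tyrobp was found in 1 of the 21 and 0 of the 11, and Fcer1g in none.

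CD4-type cells, with Cd4 and without Cd8a or Cd8b1, held few granzyme UMIs but did hold Il2rb. In 214 such cells of the library labelled Healthy and 62 of MTZ-preventive, Gzma had 6 and 0 UMIs, Gzmb 2 and 1, Gzmk 5 and 1, and Prf1 none. As a level, Gzmk in the library labelled Healthy was alike in CD4-type cells, 7.45 CPM (2.42 to 17.4), and CD8-type cells, 7.33 CPM (4.48 to 11.3). In MTZ-preventive it was at 6.16 CPM (0.156 to 34.3) and 62.6 CPM (46.0 to 83.2). Il2rb was at 104 and 265 CPM in CD4-type cells of these libraries, a ratio of 2.54 (1.70 to 3.77), and Ifng at 25.3 and 98.5 CPM, 3.89 (1.84 to 8.19). The Ifng ratio rests on 17 and 16 UMIs, 70.6% and 81.25% of them in the 5 highest cells. The thinned shares of CD4-type cells with Ifng overlapped in their limits, at 2.34% (0.763 to 5.37) and 3.23% (0.393 to 11.2). T-gated cells with Trdc, the delta chain gene of gamma-delta T cells, and no Cd4, Cd8a or Cd8b1 numbered 26, 14 and 21 in the library labelled Healthy, MTZ-treated and MTZ-preventive. None had a UMI of Gzma, Gzmb, Gzmk, Prf1 or Xcl1, while Il2rb was found in 46.2%, 35.7% and 33.3% of them and was at 353, 295 and 431 CPM.

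CD8+ T cells with CD122, the Il2rb product, are a population that the study names. Il2rb had a UMI in 76 of 775 CD8-type cells in the library labelled Healthy and 35 of 263 in MTZ-preventive, thinned to 1000 UMIs. Ccl5 was found in more of the Il2rb-positive than of the Il2rb-negative cells, with limits that did not overlap in either library. It was found in 34.2% against 12.4% in the library labelled Healthy and in 62.9% against 25.4% in MTZ-preventive. Ifng was found in 13.2% against 4.58% and in 22.9% against 8.77%. Tcf7, a factor of naive and memory T cells, was found in 10.5% against 20.6% and in 5.71% against 19.7%. The limits of Tcf7 overlapped in both libraries and those of Ifng in MTZ-preventive. The split uses Il2rb alone, and the positive cells were deeper before thinning, with medians of 3749 against 3354 and 2982 against 2627 UMIs. Among the members, Gzma was found in 1.32% against 1.72% and in 5.71% against 5.70%, Gzmk in 2.63% against 1.001% and in 14.3% against 3.51%, and Nkg7 in 31.6% against 26.5% and in 54.3% against 27.6%. Klrd1 was found in 14.5% against 8.01% and in 11.4% against 4.39%, and Xcl1 in 3.95% against 2.86% and in 8.57% against 1.32%. Of these 5, only Nkg7 in MTZ-preventive had limits that did not overlap. Foxp3, the factor of regulatory T cells, was found in 0 of 76 and 0 of 35 positive cells, which limits cells with a UMI to 4.74% and 10.003% and does not limit cells that express it. Nr4a1, an early response gene of T cell stimulation, was found in 50% against 51.4% and in 51.4% against 48.7%.

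TCR contigs come from separate libraries, although the T gate itself counts TCR transcripts. Clone size is used by neither the gates nor the members. Nearly all paired receptors were seen once, with 627 clones among 633 barcodes in the library labelled Healthy and 270 among 277 in MTZ-preventive. By the TRB chain alone, 15 T-gated cells of the library labelled Healthy and 23 of MTZ-preventive belonged to clones of 2 or more. On the thinned counts, a UMI of Gzma, Gzmb, Gzmk or Prf1 was found in 5 of the 15 (11.8% to 61.6%) and in 15 of 941 single ones (0.895% to 2.62%). In MTZ-preventive it was found in 6 of 23 (10.2% to 48.4%) and 15 of 334 (2.54% to 7.30%). By paired chains the repeated clones held 5 and 6 T-gated cells, of which 2 and 0 had such a UMI, against 10 of 507 and 14 of 186 single ones, so that the order turned in MTZ-preventive. Cells of 1 clone are not independent, and no test was made.

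Across 32 sums of a class within a library, with at least 50 cells each, the genes whose log2 level was most like the mean of the 10 members were Ms4a4b (Pearson r = 0.93), Eomes, Txk, Sh2d1a and Sla2 (r = 0.93 each), among 6531 genes. Eomes, a T-box factor of NK and effector CD8 T cells, also led for Gzma (r = 0.90) and Gzmb (r = 0.96), and Sla2, an adaptor of lymphocyte receptor signalling, for Xcl1 (r = 0.92). Among the members the closest pair was Gzma and Gzmb (r = 0.94) and the least alike Gzmk and Prf1 (r = 0.32). The only sum of NK-gated cells was that of the library labelled Healthy, with 65 cells, as the other libraries held fewer than 50. These values therefore lean on that sum. The sums also share libraries and differ in depth, so these are descriptions.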

How the data were processed

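The authors deposited unnormalised UMI counts per gene and droplet, made with Cell Ranger 5.0.0 (per the file headers; the submitters' processing notes name STAR and the build mm10). The deposited TCR tables list productive contigs with counts of UMIs, of which only barcodes and chains were used. The BCR files were not used.

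Barcodes were kept by the study's limits: over 200 genes, over 1000 UMIs, complexity over 0.7, and mitochondrial and hemoglobin UMIs under 10% and 5%. Likely doublets were scored against 2 simulated doublets per cell in 30 components of 2000 variable genes, and the top 0.8% per 1000 cells were removed, 39 to 2130 per library. Counts of 38 repeated symbols were summed. A T-gated or NK-gated cell that also met another gate was set apart as mixed (3 to 224 per library). B and mast cells needed 2 genes of their gate and the other types 3. Counts were summed over cells and scaled to 1000000 (CPM). Limits are exact Poisson for levels, Clopper-Pearson for shares and conditional binomial for ratios. A fold counted at 2-fold with 1 CPM added and at least 20 UMIs over both sums.

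All 10 members are named, with 36 related genes and the genes most like them (5 for the mean, 3 each for Gzma, Gzmb and Xcl1; at least 50 CPM in 1 sum). Members and lists were chosen with earlier results of these data known. Alternatives were another cell filter, all barcodes, doublets kept, gates of 3 genes or, added after seeing the data, of 1, the highest cell of each gene left out (also added), mixed cells kept, TMM factors, other totals, the mean over cells, no minimum count, 0.1 CPM added, a fold of 4, no thinning and clones by TRB. Promoters and positions came from RefSeq tables of GRCm38.p6, the assembly of mm10; 7 of 10 members matched a promoter. For CD8-type cells, levels were also read with the UMIs of the 5 highest cells of each gene taken out. Steps were tested on simulated data. Versions were edgeR 4.0.16 in R 4.3.3 and, in Python 3.11.15, matplotlib 3.10.9, pandas 2.3.3, numpy 2.4.6, scikit-learn 1.9.0 and scipy 1.17.1.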

Additional observations from a re-analysis of the deposited data

How the results depend on the processing

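No paired analysis was possible because each group had 1 library. The counts of members past 2-fold against AS, AS against the library labelled Healthy, and NK-gated against T-gated cells stayed within 1.5 times their value under the alternatives run, except that 3 of 9 were past 4-fold in MTZ-treated over AS. In T-gated cells, 1 member was past 4-fold in MTZ-preventive over the library labelled Healthy. In NK-gated cells the count of 1 lower was 0 with gates of 3 genes or a fold of 4, and 3 lower with gates of 1 gene (chosen after seeing the data), mixed cells kept, TMM factors or the mean over cells, so that it depended on the processing.

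The share of the members' UMIs in the lymphocyte gates moved in every library. In the library labelled Healthy, AS, MTZ-treated and MTZ-preventive it was 68.6%, 20.6%, 49.1% and 61.6% with the looser cell filter and 61.9%, 19.0%, 42.9% and 53.1% over all deposited barcodes. For the library labelled Healthy, MTZ-treated and MTZ-preventive it was 72.2%, 56.4% and 59.0% with doublets kept, 69.0%, 38.6% and 50.8% with gates of 3 genes, 87.1%, 74.6% and 74.9% with gates of 1 gene and 83.6%, 62.0% and 67.9% with mixed cells kept. AS stayed lowest in each of these settings. The cause was not tested.

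Leaving mitochondrial, hemoglobin and ribosomal protein genes out of the totals moved 64 of 100 levels beyond their counting limits, with every level higher by 1.19 to 1.64 times, and no thinning moved 29 of 70 shares. Leaving out the highest cell moved 5 of 60 levels. Depth limits AS most, with 10 T-gated cells and a floor of 0.789 CPM.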

Other observations

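Genes that receive the signals of killer cells were read in the other classes. Il15, the cytokine that acts through Il2rb, was at 22.8, 21.0 and 22.4 CPM in endothelial-gated cells of the library labelled Healthy, MTZ-treated and MTZ-preventive and at 10.0, 11.2 and 6.11 CPM in fibroblast-gated cells, while T-gated cells of the same libraries had 2, 1 and 3 Il15 UMIs in all. Il15ra, which presents the cytokine, was at 25.3, 17.4 and 21.3 CPM in the endothelial-gated cells. Serpinb9, which inhibits granzyme B, was at 32.9, 38.4 and 42.4 CPM in endothelial-gated cells, 17.9, 16.02 and 18.2 in smooth muscle-gated cells and 12.7, 12.1 and 10.9 in fibroblast-gated cells, and the limits of endothelial-gated and smooth muscle-gated cells did not overlap in any of these 3 libraries. Of Ifngr1, the ligand-binding receptor chain of interferon gamma, endothelial-gated cells had 171 CPM in the library labelled Healthy and 175 in MTZ-preventive, against 47.9 and 51.1 in smooth muscle-gated cells.

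Cells with at least 3 of the 10 genes were also found, before thinning, among ungated cells, 41 in the library labelled Healthy, 31 in MTZ-treated and 34 in MTZ-preventive, against 0 in AS. Of these, 28, 21 and 28 had 1 T gate gene or 1 NK gate gene. In AS, 5 of the 10 Klrd1 UMIs were in 1 cell.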
